A study of Homo sapiens with 6 samples.

Results

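Genes of homologous recombination, of the Fanconi anemia pathway and of mismatch repair, with the kinases that act upstream of them, were followed by RNA-seq in BxPC-3, an established line of human pancreatic cancer cells. The members were 38 listed gene symbols, and all 38 were found among the 26255 symbols of each library. All 38 also had a mean of at least 1 FPKM (a read number scaled to exon length and library size) over the libraries and were among the 12040 genes tested. The libraries formed 3 groups of 2. Parent cells had no treatment, NC-1 cells received a negative control RNA, and the remaining group received miR-4711-5p. Per the study the RNA was taken 36 h after transfection. All groups are of a single cell line, and nothing in the labels says whether the 2 libraries of a group came from separate cultures. The p-values below therefore measure only the spread between these libraries, which may be technical. Which of the control duplexes in the study's methods is NC-1 is not stated in the labels.

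In homologous recombination, a DNA break is cut back to single strands by nucleases, BRCA1 and BRCA2 prepare these for pairing, and an intact sister chromatid serves as template. The Fanconi proteins act at crosslinks between the strands of DNA, where a core complex attaches ubiquitin to FANCD2 and FANCI and opens the way for nucleases. Mismatch repair removes bases misincorporated during replication, and the kinases ATM and ATR, with CHEK2 and CHEK1 below them, hold the cell cycle while damage is present. Many genes of these systems are transcribed in S phase and are known targets of E2F factors.

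The deposited FPKM summed to between 493145 and 550772 per library. The number of reads is not known. Against the parent 1 library, the steps between the lowest values gave a relative depth of 0.873 for Parent replicate 2. Relative depths were 0.751 and 0.857 for NC-1, and 1.08 and 1.21 for miR-4711-5p. Each estimate rested on 29.1% to 36.8% of the low values compared. The groups did not overlap in estimated depth, so depth and group cannot be told apart. The 7 epithelial markers were expressed in every library, with summed levels of 5274 to 6277 FPKM in the control libraries and of 5210 and 5262 FPKM with miR-4711-5p. Single markers differed more: CDH1 was at 109.4 to 116.5 FPKM in the controls and 28.3 and 30.9 with miR-4711-5p, KRT19 at 1254 to 1700 and 890.1 and 911.6, and MUC1 at 21.9 to 30.5 and 14.6 and 15.6, while KRT18 (962.6 to 1116 and 1251 in both) and EPCAM (91.6 to 102.9 and 107.4 and 109.7) were higher. Their part in the members' differences was not tested. SMAD4, a gene deleted in BxPC-3, was listed at 0 in all 6. Of the 8 blood cell markers CD68 alone exceeded 1 FPKM, and of the 8 fibroblast markers COL1A1 alone did. The summed level of the blood cell list was 14.7 to 16.5 FPKM in the 4 control libraries and 12.5 to 14.5 with miR-4711-5p, and that of the fibroblast list was 1.40 to 2.59 and 2.19 to 2.38 FPKM. PTPRC was at most 0.0253 FPKM and TYROBP was listed at 0 in every library. In bulk RNA, fewer cells in a cycle phase and less RNA per cell cannot be told apart.

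The mature strand of miR-4711-5p from RefSeq, with its seed (positions 2 to 8) in capitals, has the same letters as the transfected sense strand given in the study's methods. It is shown because its seed defines the sites searched in the members.
hsa-miR-4711-5p: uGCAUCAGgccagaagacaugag
In the longest annotated 3′ UTR of each member (GENCODE on GRCh37, the build equal to hg19), 9 of the 38 held at least 1 match to the seed, which was 23.7%. Among all 11185 genes with a matched 3′ UTR the share was 18.4%. No member held the 8mer CTGATGCA. The matches were 7mer-m8 sites (CTGATGC) in FANCA, FANCD2, PMS2, RAD50 and SLX4, and 7mer-A1 sites (TGATGCA) in BRCA2, CLSPN, FANCB and RAD51D. The sites below are those of the 5 members with a site that were called lower against Parent, and that of SLX4, which was not called. Capitals mark the site.
RAD51D, site a: taggccctTGATGCAtgtctcat
RAD51D, site b: aggctctgTGATGCAtagacctt
RAD51D, site c: taagcttaTGATGCAtgggggat
FANCA: ccaggcccCTGATGCtccaacct
FANCD2: ttacctgcCTGATGCcagctcat
RAD50: ttgtttccCTGATGCctgtactt
CLSPN: aatttaatTGATGCAattaggtt
SLX4: gaacaactCTGATGCcaccacaa
On GRCh37, the RAD51D sites lie at chr17:33421855-33421861, chr17:33420861-33420867 and chr17:33420134-33420140, all in a 3′ UTR of 8732 nt. Those of FANCA, CLSPN and SLX4 are at chr16:89804175-89804181, chr1:36200358-36200364 and chr16:3631386-3631392, and these genes, like RAD51D, are on the minus strand. The FANCD2 site is at chr3:10082536-10082542 and the RAD50 site at chr5:131980957-131980963, both on the plus strand. The longest 3′ UTRs of FANCA, FANCB and FANCD2 are not those of the canonical transcript.

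Members were expressed at middle levels. In Parent cells the mean ranged from 2.19 FPKM (FANCB) to 39.6 FPKM (FANCI), with a median of 11.0 FPKM, beside a median of 11.8 FPKM over all genes tested. FANCI and RBBP8, a resection factor also called CtIP, were the highest, at 39.6 ± 0.678 and 38.8 ± 1.21 FPKM (SD, n = 2 each), and these means did not differ beyond their spread. MSH6, which recognises mismatches, followed at 28.6 ± 0.246 FPKM. BRCA2, ATM, SLX4, FANCM and BRIP1 were between 2.75 and 3.65 FPKM. Summed over the members, the level was 501.8 and 509.3 FPKM in the Parent libraries, 444.0 and 437.6 in the NC-1 libraries, and 421.8 and 429.4 with miR-4711-5p. Both transfected groups lay below Parent.

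**Figure D1:**
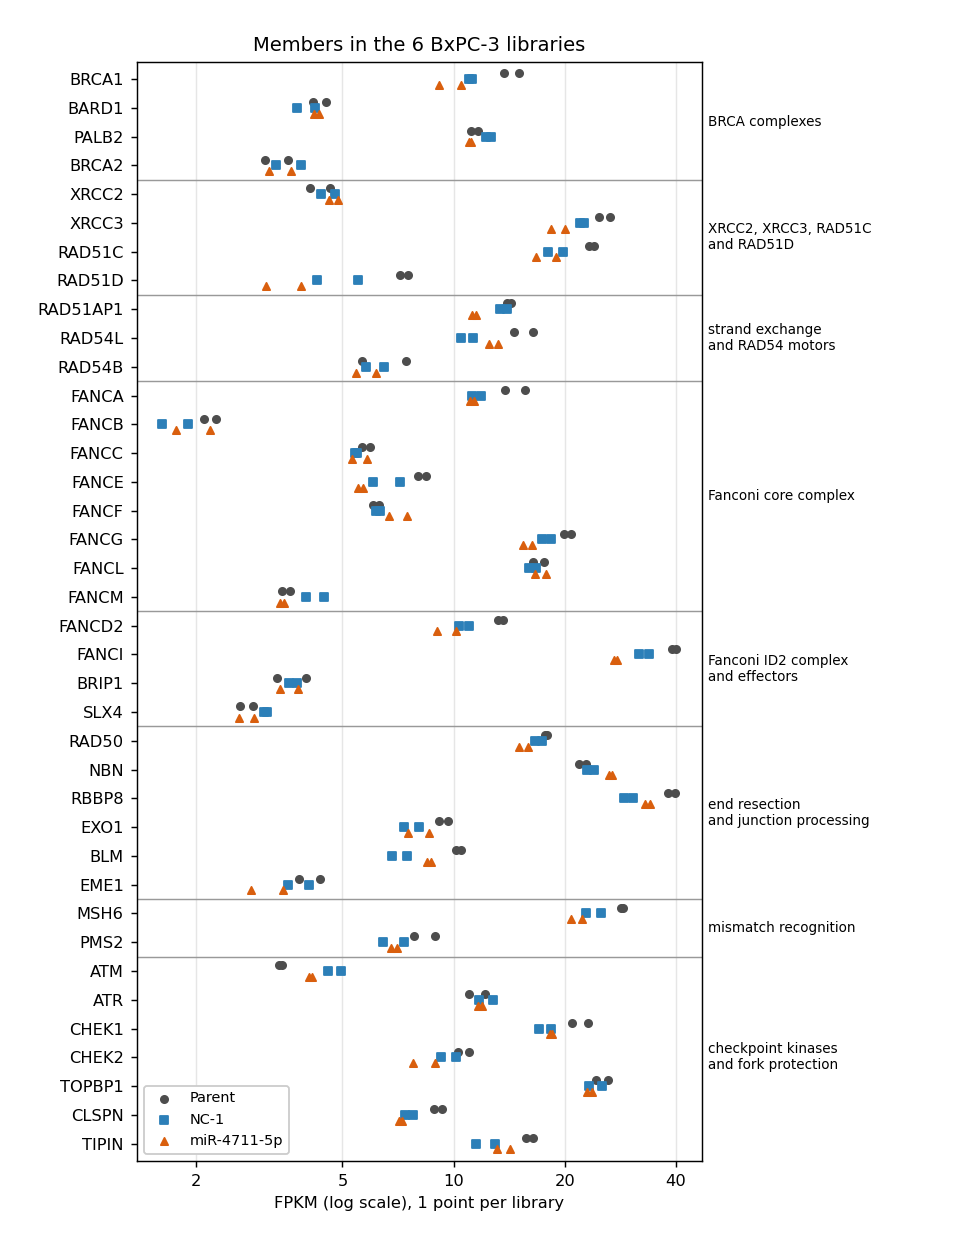
FPKM of the 38 members in each of the 6 BxPC-3 libraries on a log axis, 1 point per library, with circles for Parent, squares for NC-1 and triangles for miR-4711-5p, and with members grouped by role. In 23 of 38 members both miR-4711-5p libraries lie below both Parent libraries (60.5%, beside 39.3% of all genes tested). In 22 members both NC-1 libraries do (57.9%, beside 34.2% of all genes tested).

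Against Parent cells, 19 of the 38 members were lower with miR-4711-5p and 1, NBN, was higher (limma on log2(FPKM + 1), Benjamini-Hochberg adjusted p under 0.05 over all genes). That was 50% lower, where 24.7% of all genes tested were lower and 18.7% higher. The median log2 difference was -0.21 for the members and -0.01 for all genes. Lower calls were concentrated in members with more RNA: 16 of the 21 members over 10 FPKM in Parent cells were called lower (76.2%, beside 35.4% of all genes over 10 FPKM), and 3 of the other 17 (17.6%, beside 11.7% of all genes at most at 10 FPKM). The differences were small. Only RAD51D passed a limit of 1.5-fold.

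Against NC-1 cells, 4 members were lower with miR-4711-5p and 4 were higher, 10.5% in each direction. Over all genes 21.2% were lower and 18.4% higher, so the share of members called against the control duplex was below the background in both directions. The median was -0.06 for the members and 0.00 for all genes. Called lower against both controls, with both miR-4711-5p libraries below the 4 control libraries, were XRCC3, RAD51D, RAD51AP1 and FANCI, 4 of 38 (10.5%) beside 15.4% of all genes. NBN was the 1 member called higher against both and above the controls (2.63%, beside 1207 of the 12040 genes). Without regard to a test, both miR-4711-5p libraries were below the 4 controls in 13 members (34.2%, beside 26.3% of all genes) and above them in 2, FANCF and NBN (5.26%, beside 23.8%).

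NC-1 itself differed from Parent. In that comparison 14 members were lower and 1, ATM, was higher, against a background of 15.1% lower and 12.1% higher, and the members' median was -0.15. The comparisons with Parent share the Parent libraries, and those with miR-4711-5p share the treated ones.

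The scale of the libraries bears on these counts, since their FPKM sums fell from Parent to NC-1 to miR-4711-5p. When every library was rescaled to the same sum, the median of all genes moved up by 0.12 for miR-4711-5p against Parent. On that scale 11 members were lower and 3 higher (background 14.8% lower and 33.3% higher), 2 were lower and 4 higher against NC-1 (17.3% and 24.3%), and 9 were lower and 3 higher in NC-1 against Parent (8.31% and 19.3%). Over all genes the calls against Parent went from 2255 higher and 2975 lower to 4010 higher and 1776 lower. Relative to the median of all genes, the members' median was -0.20 with the deposited values and -0.19 after rescaling. Rescaling ended the calls of RAD54L, RAD50, RBBP8, BLM, CHEK1, CHEK2, CLSPN and TIPIN against Parent, of XRCC3 and RAD51D against NC-1, and of RAD51C, FANCE, MSH6, CHEK1 and CLSPN in NC-1 against Parent. It added higher calls for FANCF and ATM against Parent and for PALB2 and FANCM in NC-1 against Parent.

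**Figure D2:**
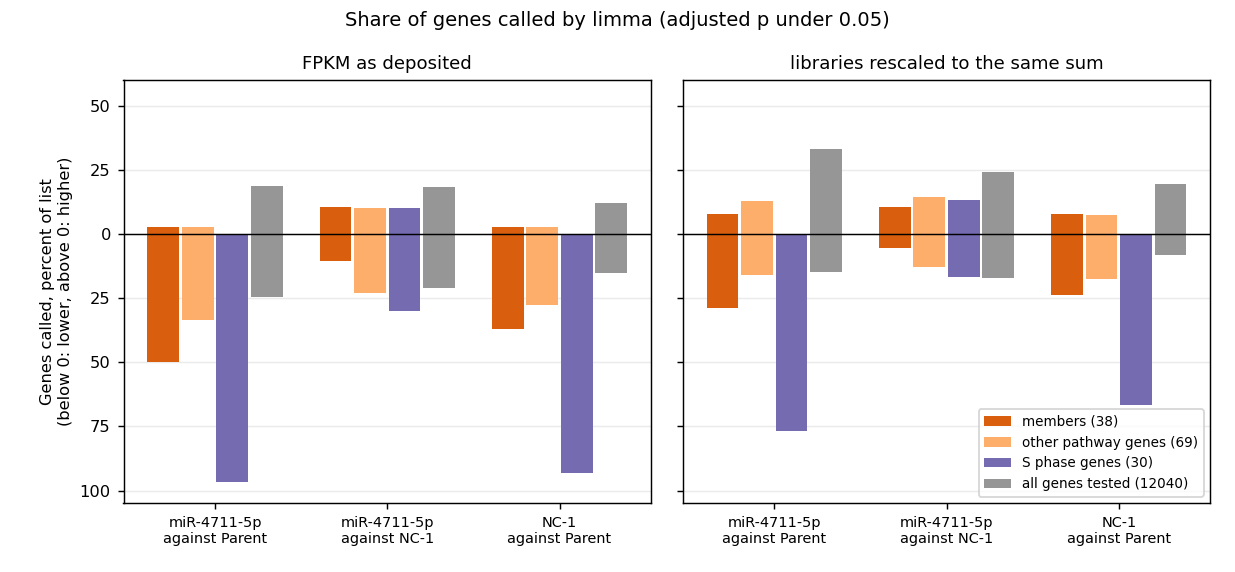
Percent of each gene list called lower (downward bars) or higher (upward bars) by limma in the 3 comparisons, with the FPKM as deposited (left) and with libraries rescaled to the same sum (right). On the left, members reach 50% lower for miR-4711-5p against Parent and 10.5% against NC-1, beside 24.7% and 21.2% of all genes tested.

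Genes of S phase and proliferation were also lower than Parent, in a larger share than the members. Of 30 such genes (MCM genes, PCNA, RRM2, MKI67 and others), 29 were lower after miR-4711-5p than in untreated cells (96.7%, beside 24.7% of all genes). In NC-1 against Parent 28 were lower (93.3%, beside 15.1%). With miR-4711-5p against NC-1, 9 were lower and 3 higher (30% and 10%, beside 21.2% and 18.4%), where 10.5% of the members went each way. The medians of the S phase genes were -0.37, -0.38 and -0.07. After rescaling to the same sum, 23, 20 and 5 of the 30 were lower (76.7%, 66.7% and 16.7%, beside 14.8%, 8.31% and 17.3% of all genes). The part of cell cycle phase in the members' differences was not tested.

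The group of XRCC2, XRCC3, RAD51C and RAD51D, which act in homologous recombination, held the member with the largest decrease. RAD51D, a part of the BCDX2 complex, had 7.16 and 7.504 FPKM in Parent, 4.27 and 5.52 in NC-1, and 3.11 and 3.87 with miR-4711-5p. The miR-4711-5p pair lay below all 4 controls, and both NC-1 libraries were below Parent. The log2 difference was -0.90 (standard error 0.12, limma adjusted p = 0.00125) against Parent, -0.39 (0.12, adjusted p = 0.0412) against NC-1, and -0.51 (0.12, adjusted p = 0.0242) for NC-1 against Parent. Mean FPKM fell by 52.4% against Parent and by 28.7% against NC-1. The call against NC-1 was lost under 9 of 17 alternatives on adjusted p, among them rescaling to the same sum (limma adjusted p = 0.0575), and its change was under 1.5-fold. The adjusted p went up to 0.224, which was without miR-4711-5p replicate 1. It was also lost there without miR-4711-5p replicate 2, NC-1 replicate 2 and each Parent library (0.0503, 0.203, 0.0759 and 0.0756), and the call for NC-1 against Parent without NC-1 replicate 1 and each Parent library (limma adjusted p = 0.116, 0.0998 and 0.109). A coding gene annotated on the same strand overlaps RAD51D, so reads may be shared. The same limit applies to RAD54B, FANCG, RAD50 and CHEK1, which such genes also overlap. Pseudogenes are annotated for BRCA1, RAD51AP1, FANCD2, RBBP8, PMS2, CHEK2 and TIPIN.

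XRCC3, the partner of RAD51C in the CX3 complex, had 26.6 and 24.8 FPKM in Parent, 22.5 and 22.0 in NC-1, and 20.1 and 18.3 with miR-4711-5p. The groups formed 3 steps without overlap. The log2 difference was -0.40 (standard error 0.06, limma adjusted p = 0.00214) relative to Parent and -0.20 (0.06, adjusted p = 0.0362) against NC-1. Without NC-1 replicate 1, NC-1 replicate 2 or miR-4711-5p replicate 2, XRCC3 was no longer called against NC-1 (limma adjusted p = 0.139, 0.0918 and 0.204). The call was also lost after rescaling to the same sum (0.0930), without a trend in the fit (0.0575) and without a filter on the mean (0.0675).

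RAD51C had 23.2 and 23.9 FPKM in Parent, 17.98 and 19.8 in NC-1, and 16.7 and 18.9 with miR-4711-5p. The transfected groups overlapped each other and lay below Parent: the log2 difference was -0.39 for miR-4711-5p and -0.31 for NC-1 (limma adjusted p = 0.00544 and 0.0244). The second of these was lost after rescaling to the same sum (adjusted p = 0.0601). XRCC2, which binds RAD51D, was not called in any comparison, at 4.36 ± 0.385 FPKM in Parent, 4.58 ± 0.273 in NC-1 and 4.73 ± 0.176 in treated cells (SD, n = 2 each).

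RAD51AP1, which acts in strand pairing, was lower with miR-4711-5p than in both controls, while the controls did not differ past the threshold. It had 13.9 and 14.3 FPKM in Parent, 13.4 and 13.98 in NC-1, and 11.2 and 11.5 with miR-4711-5p. The controls overlapped, and both miR-4711-5p libraries were below them. The log2 difference was -0.29 (standard error 0.05, limma adjusted p = 0.00467) relative to Parent and -0.25 (0.05, adjusted p = 0.00979) against NC-1, and -0.04 (adjusted p = 0.6001) for NC-1 against Parent. Without NC-1 replicate 2 or miR-4711-5p replicate 1 the call against NC-1 was lost (limma adjusted p = 0.0570 and 0.0728).

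RAD54L, a motor protein of strand invasion, showed another order. It had 14.6 and 16.4 FPKM in Parent, 10.5 and 11.3 in NC-1, and 12.4 and 13.2 with miR-4711-5p. The miR-4711-5p libraries lay between the other groups, with a log2 difference of -0.25 against Parent and 0.22 against NC-1 (limma adjusted p = 0.0275 and 0.0497). RAD54B, its paralog, was not called. It had 6.55 ± 1.27 FPKM in Parent and 5.80 ± 0.495 in treated cells (SD, n = 2 each), and it overlaps FSBP, a gene on the same strand.

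In the BRCA complexes only BRCA1 was called. It had 13.7 and 15.0 FPKM in Parent, 11.0 and 11.2 in NC-1, and 9.11 and 10.5 with miR-4711-5p. The miR-4711-5p pair lay below the controls, but the step from NC-1 was not past the threshold: the log2 difference was -0.51 (standard error 0.08, limma adjusted p = 0.00207) against Parent, -0.16 (0.08, adjusted p = 0.137) against NC-1, and -0.35 (0.08, adjusted p = 0.0193) for NC-1 against Parent. The last of these was lost when any 1 Parent or NC-1 library was left out (limma adjusted p from 0.0532 to 0.0962). BARD1, the obligate partner of BRCA1, stayed at 4.34 ± 0.244, 3.99 ± 0.308 and 4.26 ± 0.0896 FPKM in Parent, NC-1 and miR-4711-5p cells (SD, n = 2 each), and its log2 difference from Parent was -0.02 with a standard error of 0.08.

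BRCA2 had 3.09 and 3.55 FPKM in Parent, 3.87 and 3.30 in NC-1, and 3.62 and 3.16 with miR-4711-5p. All groups overlapped, and its log2 differences were 0.02, -0.06 and 0.08 with a standard error of 0.11 each. The site in its 3′ UTR, a 7mer-A1, thus came with no call. PALB2, the bridge from BRCA1 to BRCA2, was not called either, with 11.4 ± 0.373, 12.4 ± 0.312 and 11.1 ± 0.109 FPKM (SD, n = 2 each), but was called higher in NC-1 than in Parent after rescaling (0.19, limma adjusted p = 0.0480).

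**Figure D3:**
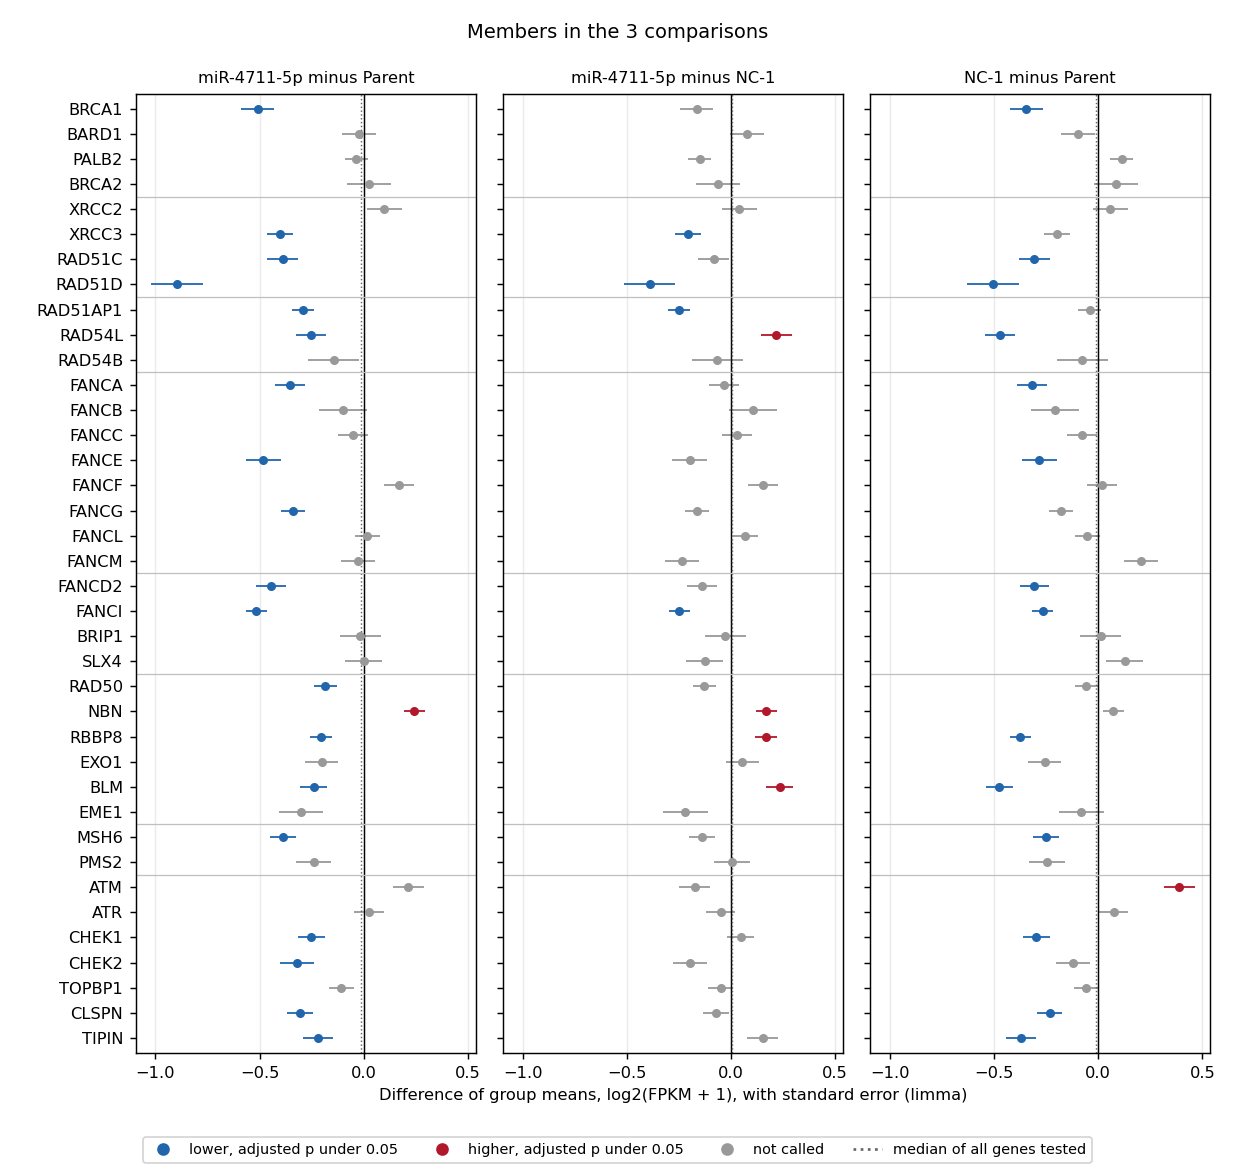
Difference of group means on log2(FPKM + 1) for each member (points) with its limma standard error (bars) in the 3 comparisons, blue where called lower, red where called higher, grey where not called, with the median of all genes tested as a dotted line. Blue points number 19, 4 and 14 and red points 1, 4 and 1 from left to right.

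In the Fanconi pathway, the pair that receives ubiquitin fell. FANCI had 40.1 and 39.1 FPKM in Parent, 33.8 and 31.7 in NC-1, and 27.1 and 27.7 with miR-4711-5p, again 3 steps without overlap. The log2 difference was -0.52 (standard error 0.05, limma adjusted p = 0.000267) against Parent, -0.25 (0.05, adjusted p = 0.00764) against NC-1, and -0.27 (0.05, adjusted p = 0.0102) for NC-1 against Parent. FANCI was called lower against Parent under all 17 alternatives on adjusted p; its change was under 1.5-fold. Against NC-1 the call was lost without miR-4711-5p replicate 1 (limma adjusted p = 0.0585), and NC-1 against Parent lost it without Parent replicate 1 (0.0592).

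FANCD2 had 13.2 and 13.6 FPKM in Parent, 11.0 and 10.3 in NC-1, and 9.03 and 10.2 with miR-4711-5p. Its miR-4711-5p libraries were the lowest of the 6, with a log2 difference of -0.45 (standard error 0.07, limma adjusted p = 0.00230) against Parent and -0.14 (0.07, adjusted p = 0.158) against NC-1. NC-1 was lower than Parent by -0.31 (limma adjusted p = 0.0197), and this call was lost when any 1 Parent or NC-1 library was left out (adjusted p from 0.0596 to 0.0985). The annotation lists a pseudogene of FANCD2.

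Of the 8 genes of the Fanconi core complex, FANCA, FANCE and FANCG were lower than Parent with miR-4711-5p, by log2 differences of -0.35, -0.48 and -0.34 (limma adjusted p = 0.00661, 0.00341 and 0.00315). FANCB, FANCC, FANCF, FANCL (the ubiquitin ligase) and FANCM (the translocase that anchors the complex) were not called in any comparison with the deposited values. After rescaling to the same sum, FANCF was called higher with miR-4711-5p than in untreated cells (0.29, limma adjusted p = 0.0164) and FANCM higher in NC-1 than in Parent (0.27, adjusted p = 0.0484). None of the 8 was called against NC-1 on either scale. FANCA was at 11.5 ± 0.469 FPKM in NC-1 and 11.2 ± 0.226 with miR-4711-5p, beside 14.7 ± 1.29 in Parent (SD, n = 2 each). FANCF lay above all 4 controls in both miR-4711-5p libraries, at 7.46 and 6.67 FPKM against 6.05 to 6.32, with a log2 difference of 0.17 from Parent (limma adjusted p = 0.0949). The effectors BRIP1, a helicase, and SLX4, a nuclease scaffold, had log2 differences of -0.02 and 0.00 from Parent, with standard errors of 0.10 and 0.09.

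Among genes of end resection, NBN and RAD50, members that are parts of the MRN complex, were called in opposite directions against Parent. NBN, the subunit that recruits ATM, had 21.8 and 22.9 FPKM in Parent, 23.0 and 24.0 in NC-1, and 26.4 and 26.8 with miR-4711-5p. It was the member with higher levels against both controls, with a log2 difference of 0.24 (standard error 0.05, limma adjusted p = 0.00810) against Parent and 0.17 (0.05, adjusted p = 0.0343) against NC-1. Without miR-4711-5p replicate 2 neither call held (limma adjusted p = 0.0553 and 0.151), and the call against NC-1 was also lost without each of the NC-1 libraries and miR-4711-5p replicate 1 (0.138, 0.0587 and 0.116). RAD50, the ATPase of the complex, had 17.9 and 17.6 FPKM in Parent, 17.4 and 16.6 in NC-1, and 15.0 and 15.9 with miR-4711-5p. Its log2 difference was -0.19 (limma adjusted p = 0.0301) relative to Parent and -0.13 (adjusted p = 0.103) relative to NC-1, and the call against Parent was lost when any 1 Parent or miR-4711-5p library was left out (adjusted p from 0.0594 to 0.176) and after rescaling to the same sum (0.437).

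RBBP8 and BLM, like RAD54L, were lower than Parent and higher than NC-1. This group of 3 members was picked after its values were seen. It was 7.89% of the members, where 0.648% of all genes were called in both of these directions. RBBP8 had 37.97 and 39.7 FPKM in Parent, 30.6 and 28.8 in NC-1, and 33.1 and 33.9 with miR-4711-5p. BLM, the helicase mutated in Bloom syndrome, had 10.2 and 10.5 FPKM in Parent, 6.83 and 7.47 in NC-1, and 8.69 and 8.46 with miR-4711-5p. In both genes the 3 groups did not overlap.

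The decrease in NC-1 against Parent was -0.37 for RBBP8, -0.47 for BLM and -0.47 for RAD54L on the log2 scale (limma adjusted p = 0.00373, 0.00337 and 0.00534), and these calls held under all 17 alternatives on adjusted p. The calls with miR-4711-5p were less steady. Against NC-1 they were lost on adjusted p under 6, 4 and 7 of 17 alternatives, with limma adjusted p of up to 0.176, 0.131 and 0.224. Against Parent none of the 3 was called after rescaling to the same sum (adjusted p = 0.306, 0.193 and 0.217). Each was also lost without Parent replicate 2, miR-4711-5p replicate 1 or miR-4711-5p replicate 2 (adjusted p from 0.0611 to 0.159), BLM without Parent replicate 1 as well (0.0621).

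**Figure D4:**
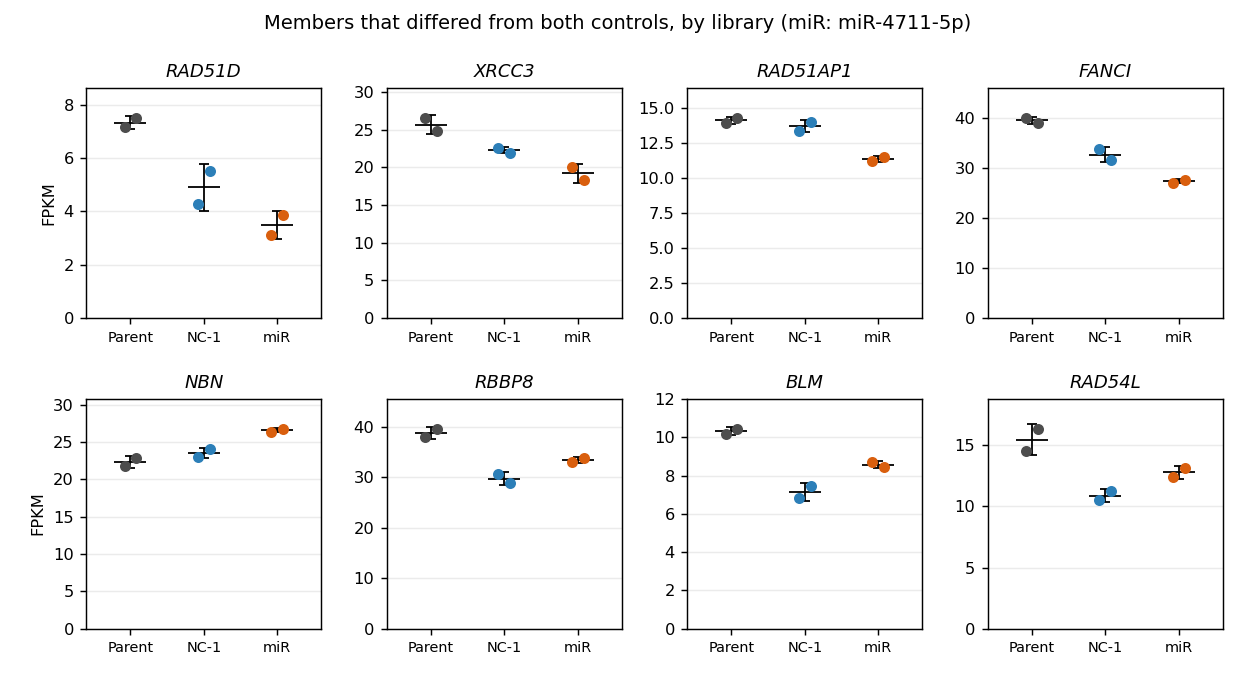
FPKM by library (points) with the mean and SD of 2 libraries (bars) for 8 members called against both Parent and NC-1, each axis starting at 0. RAD51D, XRCC3, RAD51AP1 and FANCI are lowest and NBN is highest with miR-4711-5p, and RBBP8, BLM and RAD54L lie between Parent and NC-1.

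EXO1, an exonuclease of both resection and mismatch repair, and EME1, the partner of MUS81 in junction cleavage, were not called. EXO1 had 9.40 ± 0.355, 7.71 ± 0.515 and 8.05 ± 0.723 FPKM and EME1 had 4.09 ± 0.379, 3.81 ± 0.342 and 3.14 ± 0.432 FPKM in Parent, NC-1 and miR-4711-5p cells (SD, n = 2 each). In mismatch repair, MSH6 had 28.7 and 28.4 FPKM in Parent, 25.01 and 22.8 in NC-1, and 20.9 and 22.3 with miR-4711-5p. Its log2 difference was -0.39 (limma adjusted p = 0.00243) against Parent, -0.14 (0.116) against NC-1 and -0.25 (0.0259) for NC-1 against Parent. The last was lost without NC-1 replicate 2, Parent replicate 1 or Parent replicate 2 (limma adjusted p = 0.112, 0.111 and 0.0831) and after rescaling to the same sum (0.0792). PMS2, the endonuclease subunit of MutL alpha, was not called and fell by 17.4% in mean FPKM against Parent (limma adjusted p = 0.0566); the annotation lists 12 related pseudogenes, with which reads may be shared.

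Of the 4 checkpoint kinases, CHEK1 and CHEK2 were called lower against Parent and ATM and ATR were not. ATM, which responds to broken ends, had 3.43 and 3.36 FPKM in Parent, 4.94 and 4.57 in NC-1, and 4.07 and 4.12 with miR-4711-5p. It was the single member called higher in NC-1 than in Parent, with a log2 difference of 0.39 (standard error 0.08, limma adjusted p = 0.0110), which was lost without NC-1 replicate 1 or Parent replicate 1 (0.0599 and 0.0510). With miR-4711-5p it was 0.21 above Parent (limma adjusted p = 0.0547) and passed the threshold under 4 of 16 alternatives. ATR, which responds to single-stranded DNA at forks, had 12.2 and 11.0 FPKM in Parent, 12.8 and 11.7 in NC-1, and 11.9 and 11.7 with miR-4711-5p, with all groups overlapping and no call.

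CHEK1, the kinase below ATR, had 21.0 and 23.1 FPKM in Parent, 18.4 and 17.1 in NC-1, and 18.4 and 18.2 with miR-4711-5p. Both transfected groups were below Parent, by log2 differences of -0.25 for miR-4711-5p and -0.30 for NC-1 (limma adjusted p = 0.0171 and 0.0159), and they overlapped each other. The first was lost without Parent replicate 2 or either miR-4711-5p library (adjusted p from 0.0836 to 0.0875) and after rescaling (0.185), the second without Parent replicate 2 or NC-1 replicate 2 (0.0712 and 0.0811) and after rescaling (0.0524). CHEK2, the kinase below ATM, had 11.0 and 10.3 FPKM in Parent, 9.27 and 10.2 in NC-1, and 7.78 and 8.91 with miR-4711-5p, a log2 difference of -0.32 from Parent (limma adjusted p = 0.0168) and -0.20 from NC-1 (0.0912). The call was lost without Parent replicate 1 or miR-4711-5p replicate 1 (0.0986 and 0.118) and after rescaling (0.0768), and 7 pseudogenes of CHEK2 are annotated.

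Of the fork genes, CLSPN (claspin, the adaptor between ATR and CHEK1) and TIPIN (part of the fork protection complex) fell after miR-4711-5p relative to Parent, by log2 differences of -0.30 and -0.22 (limma adjusted p = 0.00686 and 0.0461). They were also lower in NC-1 than in Parent, by -0.23 and -0.37 (adjusted p = 0.0313 and 0.0117). After rescaling to the same sum neither was called against Parent with miR-4711-5p (adjusted p = 0.0510 and 0.377), and CLSPN was not called in NC-1 against Parent (0.106). TOPBP1, the activator of ATR, was not called in any comparison, at 25.3 ± 1.30, 24.2 ± 1.32 and 23.4 ± 0.449 FPKM in Parent, NC-1 and miR-4711-5p cells (SD, n = 2 each).

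Members with and without a seed site differed little in their medians. Against Parent, the median log2 difference was -0.24 for the 9 members with a site and -0.21 for the 29 without, and 5 and 14 were called lower. Against NC-1 the medians were -0.07 and -0.05, and RAD51D was the only member with a site that was called lower. Over all genes tested with a matched 3′ UTR, the medians against Parent were -0.08 with a site and -0.01 without. Against NC-1 they were -0.11 and 0.02. Of the 2059 genes with a site, 722 were called lower against Parent and 751 against NC-1. Of the 9126 genes without a site, 2179 and 1722 were. The median 3′ UTR length was 2474 nt for members with a site and 1189 nt for those without. Over all genes it was 3100 and 1239.5 nt.

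Of the other genes of these pathways, 71 were listed and 69 were tested. With miR-4711-5p, 23 were lower and 2 higher than in Parent (33.3% and 2.9%, beside 24.7% and 18.7% of all genes). Against NC-1, 16 were lower and 7 higher (23.2% and 10.1%, beside 21.2% and 18.4%), so the lower share was near the background. In NC-1, 19 were lower and 2 higher than in Parent (27.5% and 2.9%, beside 15.1% and 12.1%). Called lower against both and below all 4 controls were 10 of the 69, beside 15.4% of all genes. The largest decreases among the 10 that were below all 4 controls and called against both were in RMI2 and RMI1, which form a complex with BLM, in the ubiquitin ligase RFWD3 and in TIMELESS, the partner of TIPIN. RMI2 had 24.0 ± 0.405, 17.7 ± 1.90 and 14.3 ± 1.38 FPKM in Parent, NC-1 and miR-4711-5p cells (SD, n = 2 each), a log2 difference of -0.72 from Parent (limma adjusted p = 0.000739) and -0.29 from NC-1 (adjusted p = 0.0360). RMI1 had a log2 difference of -0.50 from Parent and -0.34 from NC-1 (limma adjusted p = 0.00214 and 0.0117). Thus BLM was higher and both RMI genes were lower with miR-4711-5p than with NC-1. The call of BLM against NC-1 was lost without NC-1 replicate 1 or either miR-4711-5p library. It was also lost without a filter on the mean (limma adjusted p = 0.0536). Values of other parts of the complex are not given here. FAAP20, which binds FANCA, was the only gene of the list above all controls in both treated libraries and called against both, at 61.1 ± 0.852 FPKM beside 53.9 ± 3.83 in Parent and 50.5 ± 1.17 in NC-1 (SD, n = 2 each).

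Promoter windows of RefSeq (GRCh38.p14, 250 bases before to 50 after the gene start) matched 35 of the 38 members; FANCI, NBN and RAD54B had none. The windows were searched on both strands for the E2F motifs TTTCGCGC, TTTGGCGC, TTCGCGCC and TTGGCGCC, which overlap one another, and for the CHR motif TTTGAA. Other forms of the E2F motif were not searched, so a window without a match may still hold an E2F site. The windows of MSH6, FANCD2, CLSPN and XRCC2, for example, hold TTTCCCGC or its reverse complement. A listed E2F motif was in 4 of 35 members (11.4%), FANCA, FANCC, EXO1 and TOPBP1, in 4.57% of the 8975 matched genes tested, in 2.67% of all 27305 promoters and in 9 of 25 S phase genes (36%). Of these 4 members, FANCA alone was called lower against Parent after miR-4711-5p, and their median log2 difference was -0.16. Of the 31 members without a listed E2F motif, 17 were called lower, with a median of -0.24. In NC-1 against Parent, 1 of the 4 and 12 of the 31 were called lower. Over all genes tested, whatever their promoter, 24.7% were lower after miR-4711-5p and 15.1% in NC-1 against Parent. Calls of all genes were not split by motif, so these counts have no background of the same kind. The part of these motifs in the differences was not tested. The CHR motif was in 3 members (8.57%), in 9.35% of the matched genes tested and in 15.4% of all promoters. The FANCA window is shown because its motif, in capitals, starts at base 21 from the gene start and the gene was lower than Parent in both transfected groups. It lies at chr16:89816598-89816897 on the minus strand.
FANCA: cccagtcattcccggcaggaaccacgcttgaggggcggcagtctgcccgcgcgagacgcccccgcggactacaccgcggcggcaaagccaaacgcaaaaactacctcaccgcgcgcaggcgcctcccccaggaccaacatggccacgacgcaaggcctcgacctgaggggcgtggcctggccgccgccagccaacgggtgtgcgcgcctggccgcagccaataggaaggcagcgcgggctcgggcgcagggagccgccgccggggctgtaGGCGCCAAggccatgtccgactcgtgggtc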

How the data were processed

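RNA from 6 BxPC-3 libraries (Parent, NC-1 and miR-4711-5p, 2 each) was measured. The authors prepared stranded mRNA libraries, sequenced them as 75-base single-end reads, used TopHat (with Bowtie2 and SAMtools) to map them to hg19, and obtained FPKM by Cuffnorm; the deposited values are FPKM per gene symbol. The submitters' processing notes list TopHat2 2.1.1, Bowtie2 2.3.5.1, SAMtools 1.2, Cuffdiff and Cufflinks 2.2.1, and the study's methods name other versions of the mappers. The annotation and the strand and normalization options are not given in the sources used here. FPKM corrects for gene length and library size and keeps no read numbers, so no count model was used.

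All genes whose mean reached 1 FPKM were tested with limma 3.58.1 (R 4.3.3; lmFit, contrasts.fit, eBayes with a trend) on log2(FPKM + 1), all groups in 1 fit with 3 residual and 4.15 prior degrees of freedom, two-sided, Benjamini-Hochberg adjusted over all genes. A difference on this scale understates the change of low genes. An exact permutation test of 2 against 2 libraries cannot go below p = 0.333, so p-values rest on limma's variance, pooled over genes. The fit was tested on simulated data. Symbols were matched to GENCODE v44 on GRCh37 (10599 by symbol, 592 by RefSeq synonym, 849 unmatched).

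The members, the lists (other pathway genes, S phase and proliferation, end joining, base and nucleotide excision repair, cell markers) and the naming rule were chosen with earlier results of these data known. The rule gave library values for members called the same way against both controls where the treated pair lay outside the control range, for BRCA1, BRCA2, FANCD2, FANCI, ATM, ATR, CHEK1, CHEK2, MSH6 and RAD50 whatever their values, and for up to 4 genes each way of each other list. RAD51C, RAD54L, RBBP8 and BLM were added after their values were seen. Alternatives changed the pseudocount, the filter, the scale, the fit, the limit of size and the libraries used.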

Additional observations from a re-analysis of the deposited data

How the results depend on the processing

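With 2 libraries a group and an unknown number of reads, small differences cannot be resolved, so calls near the threshold moved with single libraries. Leaving out 1 library at a time, members called lower numbered 10 to 19 for miR-4711-5p against Parent, the fewest without miR-4711-5p replicate 1. They numbered 1 to 3 against NC-1 and 4 to 12 for NC-1 against Parent, and members called higher 0 to 1, 0 to 4 and 0 to 1. Lower against both controls were 1 to 3 and higher against both 0 to 1. A group left with 1 library was assumed to vary like the others. Shares of all genes called are given only for the fit described above and after rescaling to the same sum. Counts under the other settings of this section thus have no background beside them. Whether the members' excess over all genes held under those settings was not tested. In the same order of comparisons, leaving out a library gave 22 to 29, 3 to 11 and 17 to 24 calls among S phase genes, 10 to 19, 4 to 9 and 4 to 10 calls among excision repair genes, 4 to 6, 1 to 3 and 0 to 3 among end joining genes, and 12 to 24, 4 to 22 and 8 to 13 among other genes of the pathway.

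At a change of at least 1.5-fold, members called lower were 1 (RAD51D), 0 and 0, members called higher 0, 0 and 0, and 0 were lower and 0 higher against both controls. The same limit left 6, 1 and 1 S phase genes, 2, 0 and 1 of excision repair, 1, 1 and 0 of end joining and 1, 0 and 1 other pathway genes. After rescaling to the same sum, chosen after seeing the data, lower members were 11, 2 and 9, higher members 3, 4 and 3, lower against both 2, and end joining calls for NC-1 against Parent 0. Without a filter on the mean, lower members against NC-1 were 2 and in NC-1 against Parent 6, higher members against NC-1 were 1, lower against both 2, other pathway calls 16, 14 and 12, and end joining calls in NC-1 against Parent 1. Without a trend, members higher against Parent were 2, against NC-1 1 and against both 0, lower against both 2, and end joining calls in NC-1 against Parent 1. Fits of only the groups compared gave 12 other pathway calls and 1 end joining call in NC-1 against Parent. Members higher against Parent were 2 with a pseudocount of 0.1 and 2 with median-of-ratios rescaling, and at a mean of at least 5 FPKM members higher in NC-1 than in Parent were 0. The causes were not tested.

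After rescaling to the same sum, the log2 difference changed sign in 7 members against Parent, 4 against NC-1 and 4 in NC-1 against Parent, none of them called on either scale by limma. Among these were ATR against NC-1 (0.0003779), and RAD50 and RAD51AP1 in NC-1 against Parent (0.0233 and 0.0379). Over the fits without 1 library, ATR ranged from -0.1064 to 0.006437 against NC-1 and from -0.04383 to 0.09351 against Parent, and CHEK1 from -0.004623 to 0.09615 against NC-1. BRCA2 ranged from -0.1504 to 0.02846 against NC-1, changing sign also at 0.01391, from -0.05411 (and -0.05204) to 0.09984 against Parent, and from -0.0056 to 0.1733 for NC-1 against Parent.

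Replicate numbers did not pair the samples: same-numbered libraries had correlations of deviations of 0.061, 0.003 and -0.009 across genes. With the replicate block, members were 19 lower and 1 higher against Parent, 4 and 3 against NC-1, and 15 and 1 for NC-1 against Parent. RBBP8 against NC-1 was then not called (limma adjusted p = 0.0615) and XRCC3 in NC-1 against Parent was (0.0432).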

Other observations

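Of 14 tested genes of non-homologous end joining, miR-4711-5p gave 5 lower and 1 higher against Parent (limma; 35.7% and 7.14%, beside 24.7% and 18.7% of all genes). Against NC-1 it gave 3 lower and 0 higher (21.4% and 0%, beside 21.2% and 18.4%), so the lower share was near the background. NC-1 gave 3 lower and 0 higher against Parent (21.4% and 0%, beside 15.1% and 12.1%). The 3 called lower against both controls with both miR-4711-5p libraries below them were POLM, XRCC6 and PRKDC. POLM, a polymerase that fills gaps at joined ends, had 26.8 ± 0.254 FPKM in Parent, 27.7 ± 0.537 in NC-1 and 15.1 ± 0.177 in treated cells (SD, n = 2 each), a log2 difference of -0.79 from Parent and -0.83 from NC-1 (limma adjusted p = 2.81e-05 and 2.70e-05). XRCC6, which encodes Ku70, was at 281 ± 5.45, 247 ± 12.1 and 216 ± 3.38 FPKM in the same order.

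Of 36 tested genes of base and nucleotide excision repair, miR-4711-5p gave 14 lower and 4 higher calls against Parent (38.9% and 11.1%, beside 24.7% and 18.7% of all genes). Against NC-1 it gave 5 lower and 4 higher (13.9% and 11.1%, beside 21.2% and 18.4%), below the background in both directions. For NC-1 against Parent, 9 were lower and 1 was higher (25% and 2.78%, beside 15.1% and 12.1%). LIG1, the replicative DNA ligase, and DDB2, which recognises ultraviolet damage, had log2 differences of -0.63 and -0.61 from Parent and -0.23 and -0.40 from NC-1 (limma adjusted p = 0.000125 and 0.000222, and 0.0113 and 0.00185). MUTYH, a glycosylase that removes adenine opposite oxidised guanine, went from 13.0 ± 0.355 and 13.5 ± 1.97 FPKM in Parent and NC-1 to 9.05 ± 0.840 (SD, n = 2 each). RAD23B, which holds XPC in place, and ERCC2, a helicase of TFIIH, were higher than both controls, by 0.32 and 0.20 against Parent and 0.36 and 0.55 against NC-1 (limma adjusted p = 0.00204 and 0.0285, and 0.00137 and 0.000454).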
